A study of Homo sapiens with 4 samples.

Results

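The D cyclins and the inhibitors of cyclin-dependent kinases were examined in the human ovarian cancer line SKOV3, an established line, as 10 genes out of the 19475 gene symbols measured. They were CCND1, CCND2 and CCND3, the CIP/KIP inhibitors CDKN1A, CDKN1B and CDKN1C, and the INK4 inhibitors CDKN2A, CDKN2B, CDKN2C and CDKN2D. The genes were taken by symbol, and the RefSeq transcript of highest mean level represented each gene, out of 27 transcripts listed for the 10 genes. RNA-seq was available for 2 libraries of cells on tissue culture plate (TCP), labelled day 0, and for 2 libraries of spheroids on polymer X, a coating on which the cells gather into spheroids, labelled day 8. The sample labels give the same cell line and a single growth protocol with serum replacement for the 4 libraries. By the methods of the study, SKOV3 was kept in RPMI-1640 with fetal bovine serum and moved to serum replacement for spheroid culture, and spheroids were dissociated with accutase during the culture. Substrate, culture time and possibly medium therefore differed between the groups and cannot be told apart. The labels do not say whether the duplicates came from separate cultures. Each p-value therefore weighs a difference against the variation between these libraries, and it may not extend to new cultures.

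D cyclins bind CDK4 and CDK6, and the complexes start the phosphorylation of the retinoblastoma protein that lets cells leave G1. INK4 proteins bind CDK4 and CDK6 themselves and keep the cyclin away. CIP/KIP proteins bind assembled complexes, and they inhibit those of CDK2 above all. Growth factor signals and attachment are known to raise D cyclins, while contact, serum withdrawal and DNA damage are known to raise CIP/KIP proteins. mRNA levels were measured here, whereas several of these proteins are also controlled by their breakdown.

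Levels are given as FPKM, the number of tags of a transcript scaled to its length and to the tags of the library, so that genes can be compared with each other. The libraries held 38403000 to 44916000 tags, and the tested members rested on 216 to 7981 tags each. The 11964 genes that reached an FPKM of 1 in 2 or more libraries were fitted with limma on log2(FPKM + 1), and p-values were adjusted over them by Benjamini-Hochberg. A gene was called when the adjusted p lay under 0.05 and the log2 fold change reached 1 in either direction. This scale understates the changes of genes with low FPKM. The spread that limma uses for a gene is taken in part from the other tested genes. A p-value therefore does not rest on the duplicates of that gene alone. Of the 10 members, 7 passed the filter, and CCND2, CDKN2A and CDKN2B did not. As markers of an epithelial ovarian cancer line, KRT7, KRT8, KRT18, ERBB2 and PAX8 were present in every library. KRT7, KRT8 and KRT18 were lower on polymer X, with log2 fold changes of -0.76, -0.87 and -0.44. ERBB2 and PAX8 were higher there, at 2.13 and 1.06. EPCAM was 0.168 and 0.104 FPKM on TCP and 1.39 and 1.33 on polymer X. Of the 4 immune markers, CD3E was at 0 in all libraries and PTPRC read 0.0050 and 0 FPKM on TCP and 0.468 and 0.530 on polymer X. The summed level of the immune list lay between 17.2 and 17.4 FPKM on TCP and between 43.1 and 45.7 on polymer X, nearly all of it CD68, a lysosomal gene that is expressed in many cell types. The 3 endothelial markers summed to at most 0.019 FPKM on TCP and 0.617 on polymer X. The part of these markers in the results was not tested. In bulk RNA, fewer cells that express a gene and less of its RNA per cell cannot be told apart.

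On polymer X, 2 of the 7 tested members were called higher, CDKN1A and CDKN1C, against 10.7% of all tested genes. CCND3 was the 1 member called lower, against 9.45% of all tested genes. Adjusted p alone separated little, since 37.4% of all tested genes were higher and 43.6% lower by that rule, and among the members it gave 3 of 7 in each direction. The libraries of the groups did not overlap for 6 of the 7 members, against 90.4% of all tested genes. The median log2 fold change was -0.03 over the 7 members and -0.06 over all tested genes.

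Of the 3 members called, CDKN1A and CCND3 have a promoter in the RefSeq table used here, at the start of the transcript analysed, and these are shown because the genes changed in opposite directions. Each sequence runs 5′ to 3′ on the strand of the gene and covers the bases from 250 to 51 before the start in GRCh38.p14. Capitals mark the GC box GGGCGG on either strand, the core of the site that Sp1 family factors bind. The CDKN1A sequence lies on the plus strand at chr6:36678464-36678663, where other annotated transcripts of CDKN1A and the noncoding gene DINOL have exons. The CCND3 sequence lies on the minus strand at chr6:41941859-41942058, where GENCODE v29 lists no exon.
CDKN1A: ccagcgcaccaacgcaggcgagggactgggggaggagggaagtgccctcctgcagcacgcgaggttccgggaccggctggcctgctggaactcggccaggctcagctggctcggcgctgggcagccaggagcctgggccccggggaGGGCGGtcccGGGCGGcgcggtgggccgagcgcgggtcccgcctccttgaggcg
CCND3: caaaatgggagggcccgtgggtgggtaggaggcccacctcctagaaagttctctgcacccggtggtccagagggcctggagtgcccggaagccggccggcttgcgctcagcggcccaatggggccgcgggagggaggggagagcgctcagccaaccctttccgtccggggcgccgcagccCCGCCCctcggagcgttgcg

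The CDKN1A window held 2 GC boxes and the CCND3 window held 1. A GC box was present in the same window of 35.0% of the 35116 promoters in the table, so it does not set these genes apart. The windows were rich in G and C, at 77.0% for CDKN1A and 72.0% for CCND3, beside a median of 57.5% over the table. Sites for STAT factors (TTCNNNGAA), the form ACGTG of the core hypoxia element and an E2F site (TTTCCCGC, TTTGGCGC, TTTCGCGC or TTTGCCGC) were searched on both strands. Other forms of the hypoxia element were not searched. The letters searched were found in neither window. Over the table these letters occurred in 5.48%, 14.4% and 2.23% of the promoters. For 7 of the 10 members the table lists 12 promoters, and among those the STAT and E2F letters were not found in this window. The hypoxia letters were found in 2 of the 3 promoters listed for CDKN2C, both at other starts than that of the transcript analysed.

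CCND1, the cyclin that links mitogen signals to CDK4 and CDK6 in most epithelial cells, had the highest level of the members in both conditions. Its transcript NM_053056 (hg19 chromosome 11, 69455873 to 69469242, plus strand) read 41.0 and 41.5 FPKM on TCP and 32.5 and 32.1 FPKM on polymer X. Both polymer X libraries lay below both TCP libraries, at 1.28-fold less in the means. The log2 fold change was -0.34 (standard error 0.05, 95% interval -0.46 to -0.22, adjusted p = 0.00023 from limma), short of the fold minimum. Under quantile normalization it was -0.06 with an adjusted p of 0.32, so the size of this difference depends on how the libraries are scaled.

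CCND3, a D cyclin used widely in tissues and best known from lymphoid cells, fell on polymer X. NM_001760 (hg19 chromosome 6, 41902671 to 41909586, minus strand) read 21.6 and 22.8 FPKM on TCP and 10.4 and 9.38 FPKM on polymer X. The groups did not overlap, and the mean went from 22.2 ± 0.797 to 9.90 ± 0.729 FPKM (SD, n = 2), 2.24-fold less. The log2 fold change was -1.09 (standard error 0.07, 95% interval -1.24 to -0.94, adjusted p = 4.5e-07 from limma), and it was -0.95 under quantile normalization, where the gene was no longer called. The 6 listed transcripts of CCND3 share exons and tags, and their log2 ratios of the group means lay between -1.09 and -0.95.

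CCND2, the D cyclin of many blood, gonadal and neural cells, was close to absent. NM_001759 (hg19 chromosome 12, 4382902 to 4414522) had 0 tags in both TCP libraries, and 4 and 0 tags on polymer X. With 3 tags as the limit that a count of 0 allows, the TCP libraries allow up to 0.0120 FPKM by counting error alone.

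The D cyclin mRNA of these cells was thus read from CCND1 and CCND3. Their ratio within a library was 1.90 and 1.82 on TCP and 3.12 and 3.42 on polymer X. As a share of the summed D cyclin FPKM, CCND1 made up 65.5% and 64.6% on TCP and 75.7% and 77.4% on polymer X. CCND3 made up the rest, 34.5% and 35.4% on TCP and 24.3% and 22.6% on polymer X. Shares and ratios within a library do not depend on the scaling of that library, and neither pair of groups overlapped. With all listed transcripts added up, CCND1 made up 26.3% of the sum on TCP and 37.5% on polymer X in the means, since the 6 transcripts of CCND3 count the same tags repeatedly.

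**Figure D1:**
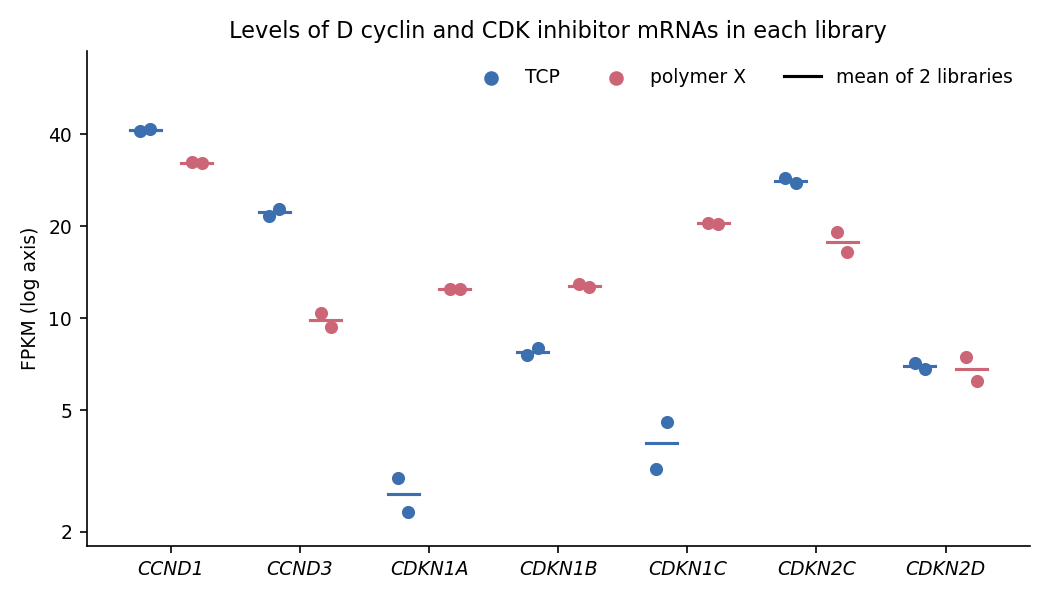
FPKM on a log axis of the 7 tested members, with 1 point per library (2 on TCP and 2 on polymer X) and a bar at the mean of each group. The points of CDKN1A, CDKN1B and CDKN1C are higher on polymer X, those of CCND1, CCND3 and CDKN2C are lower, and those of CDKN2D overlap. CCND2, CDKN2A and CDKN2B, at 0 to 0.044 FPKM, are not drawn.

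All 3 CIP/KIP inhibitors read higher on polymer X, and 2 of them passed the fold minimum. CDKN1A encodes p21, the inhibitor that is induced after DNA damage. NM_000389 (hg19 chromosome 6, 36646456 to 36655116, plus strand) read 3.00 and 2.33 FPKM on TCP and 12.4 and 12.4 FPKM on polymer X. These values come from 248 and 225 tags on TCP and 1072 and 1090 tags on polymer X, and the polymer X libraries differed by less than the TCP libraries. CDKN1A rose 4.67-fold in the means, or by 1.88 on the log2 scale (standard error 0.09, 95% interval 1.68 to 2.09, adjusted p = 9.1e-08 from limma). The 5 listed transcripts, which share most of their exons, had log2 ratios of 1.84 to 1.88.

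CDKN1C encodes p57, an imprinted inhibitor tied to cell cycle exit in differentiating tissues. NM_001122631 (hg19 chromosome 11, 2904448 to 2906995, minus strand) read 3.21 and 4.58 FPKM on TCP and 20.5 and 20.3 FPKM on polymer X. It was among the lowest tested members on TCP, where the replicates stood apart, and was second to CCND1 on polymer X. CDKN1C rose 5.25-fold in the means, or by 2.14 on the log2 scale (standard error 0.11, 95% interval 1.89 to 2.40, adjusted p = 1.7e-07 from limma). Leaving out single libraries moved this value between 1.94 and 2.35. The 3 listed transcripts had log2 ratios of 2.09 to 2.14. Of all tested genes, 98.0% had a lower log2 fold change than CDKN1C and 97.2% a lower one than CDKN1A.

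CDKN1B encodes p27, the inhibitor that accumulates in resting cells mostly through slower breakdown of the protein. NM_004064 (hg19 chromosome 12, 12870204 to 12875316, plus strand) read 7.56 and 7.97 FPKM on TCP and 12.9 and 12.6 FPKM on polymer X. Both polymer X libraries lay above both TCP libraries, by 1.65-fold in the means. The log2 fold change was 0.65 (standard error 0.06, 95% interval 0.51 to 0.79, adjusted p = 8.6e-06 from limma), short of the fold minimum.

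The summed FPKM of the CIP/KIP inhibitors was 13.8 and 14.9 on TCP and 45.9 and 45.4 on polymer X. The mean went from 14.3 ± 0.777 to 45.6 ± 0.299 (SD, n = 2), 3.19-fold more. With 1 transcript per gene, CDKN1B held the largest share on TCP, 54.9% and 53.6%, and 28.2% and 27.8% on polymer X. CDKN1C held 23.3% and 30.8% on TCP and 44.7% and 44.8% on polymer X, the largest share there. CDKN1A held 21.8% and 15.6% on TCP and 27.1% and 27.4% on polymer X. By these transcripts the CDKN1C level was 0.424 and 0.574 times that of CDKN1B on TCP and 1.59 and 1.61 times on polymer X. The order of the 3 depends on the use of a single transcript per gene. With all listed transcripts added up, CDKN1B, which has 1 transcript, held the smallest share in both conditions, 24.4% on TCP and 9.72% on polymer X in the means. CDKN1A then held 39.8% and 44.8% and CDKN1C 35.8% and 45.5%, with tags that transcripts share counted repeatedly.

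CDKN2C encodes p18, an inhibitor of CDK4 and CDK6, and was the most abundant inhibitor on TCP. NM_001262 (hg19 chromosome 1, 51434367 to 51440306, plus strand) read 28.7 and 27.8 FPKM on TCP and 19.1 and 16.5 FPKM on polymer X. Both polymer X libraries lay below both TCP libraries, by 1.59-fold in the means. The log2 fold change was -0.64 (standard error 0.07, 95% interval -0.80 to -0.48, adjusted p = 2.8e-05 from limma), short of the fold minimum. The other listed transcript, NM_078626, which starts further into the gene, read 19.2 and 16.4 FPKM on TCP and 15.9 and 13.2 FPKM on polymer X. Its log2 ratio was -0.27, nearer to 0 than the -0.64 of NM_001262, and the difference between the transcripts was not tested.

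CDKN2D encodes p19, the other INK4 protein that was measurable. NM_079421 (hg19 chromosome 19, 10677138 to 10679655, minus strand) read 7.10 and 6.82 FPKM on TCP and 7.45 and 6.21 FPKM on polymer X. The groups overlapped, and the polymer X libraries lay on either side of the TCP libraries. The log2 fold change was -0.03 (standard error 0.08, 95% interval -0.22 to 0.16, adjusted p = 0.77 from limma), with a sign that turned to 0.01 under scaling to a common median.

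CDKN2A, the gene of p16 and ARF, and CDKN2B, the gene of p15, were at or near 0. The 4 listed transcripts of CDKN2A had 0 tags on TCP, and 2 and 0 tags on polymer X, which for NM_058195 (hg19 chromosome 9, 21967751 to 21994490, minus strand) was 0.044 and 0 FPKM. Both listed transcripts of CDKN2B had 0 tags in every library. For NM_004936 (hg19 chromosome 9, 22002902 to 22009312, minus strand), 3 tags would be 0.0203 FPKM on TCP and 0.0194 FPKM on polymer X, the level up to which a count of 0 leaves room.

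Because both genes lie together on the short arm of chromosome 9, the listed genes around them were read in the same libraries. MTAP, a methionine salvage enzyme and the nearest expressed gene listed on one side, read 11.5 and 11.5 FPKM on TCP and 6.22 and 5.97 FPKM on polymer X. Its log2 fold change was -0.82 (standard error 0.06, adjusted p = 1.9e-06 from limma), short of the fold minimum. IFNE, an epithelial interferon on the far side of MTAP, rose from 1.04 and 0.817 FPKM on TCP to 4.42 and 4.38 FPKM on polymer X, by 1.49 on log2(FPKM + 1). It was the 1 gene of 6 tested here that was called, beside 10.7% of all tested genes called higher and 9.45% called lower. On the other side, DMRTA1 had 0 tags on TCP and 21 and 10 tags on polymer X, and ELAVL2 had 0 tags throughout. Among the genes listed, those from CDKN2A to ELAVL2 were thus silent on TCP. Those listed from MLLT3 to MTAP were expressed there, apart from IFNB1, which was at 0. Other genes of this region were not read, so the list does not show where expression ends. DNA was not measured, and what sets CDKN2A and CDKN2B at 0 was not tested.

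**Figure D2:**
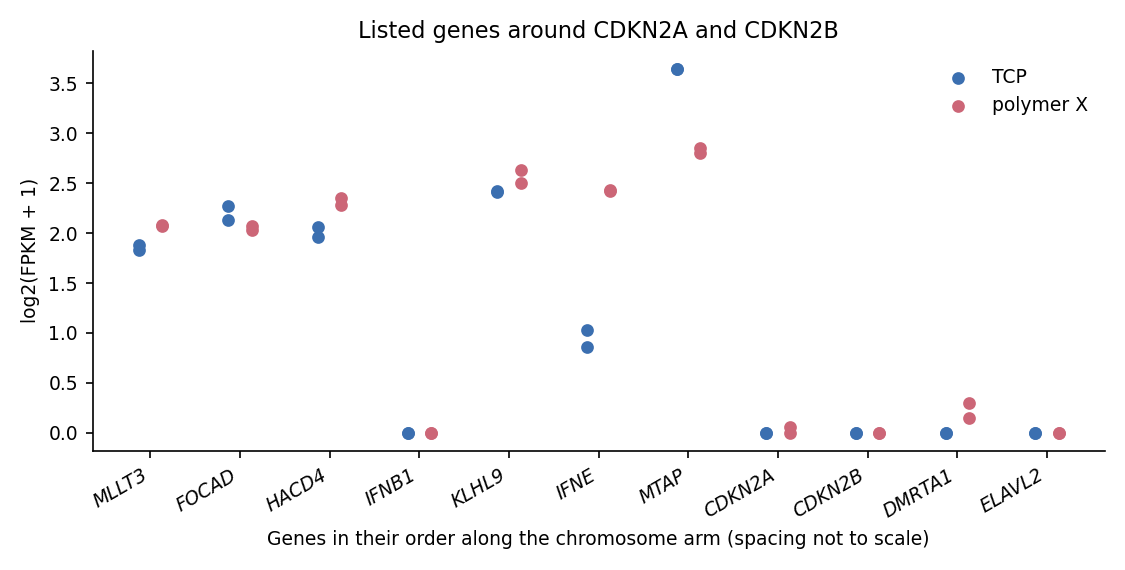
log2(FPKM + 1) of CDKN2A, CDKN2B and 9 listed genes around them, in their order along the chromosome with spacing not to scale and 1 point per library. Points of CDKN2A, CDKN2B, DMRTA1, ELAVL2 and IFNB1 sit at or near 0, while MTAP, beside CDKN2A, reads 11.5 FPKM on TCP and about 6.09 on polymer X.

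In order of their mean level on TCP, the members ran from CCND1 (41.3 FPKM) over CDKN2C (28.2), CCND3 (22.2), CDKN1B (7.77), CDKN2D (6.96) and CDKN1C (3.89) to CDKN1A (2.66). On polymer X they ran from CCND1 (32.3 FPKM) over CDKN1C (20.4), CDKN2C (17.8), CDKN1B (12.8), CDKN1A (12.4) and CCND3 (9.90) to CDKN2D (6.83). Neighbours in either order did not overlap in their 2 libraries, though CDKN1B exceeded CDKN1A on polymer X by 1.03-fold alone. CCND2, CDKN2A and CDKN2B closed both orders and overlapped with each other.

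Added up by family, the D cyclins gave 62.6 and 64.3 FPKM on TCP and 42.9 and 41.5 FPKM on polymer X, a ratio of means of 0.665. The INK4 inhibitors gave 35.8 and 34.6 FPKM on TCP and 26.6 and 22.7 FPKM on polymer X, a ratio of 0.701. None of the family sums overlapped between groups, and an exact permutation test of 2 against 2 libraries gives p = 0.333 for each, the smallest two-sided p this design allows. Within each library, the summed D cyclins stood at 4.55 and 4.32 times the summed CIP/KIP inhibitors on TCP, and at 0.936 and 0.912 times on polymer X. On polymer X the 2 families were thus read at nearly equal mRNA levels. With all listed transcripts added up, the mean ratio was 4.94 on TCP and 0.655 on polymer X.

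**Figure D3:**
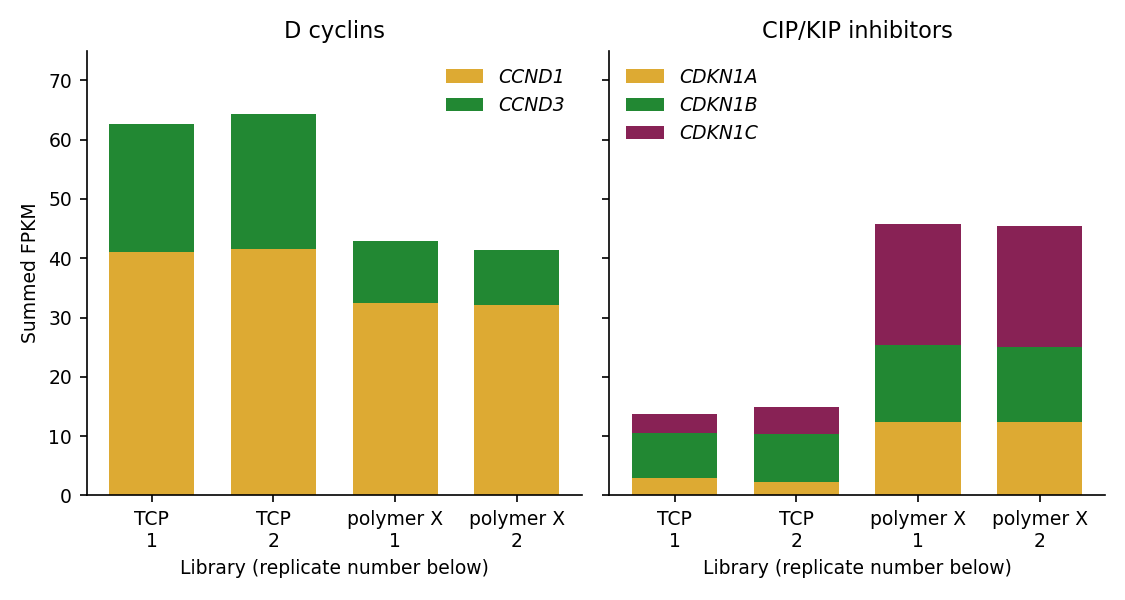
Summed FPKM of the D cyclins and of the CIP/KIP inhibitors in each of the 4 libraries, stacked by gene with 1 transcript per gene and drawn from 0. The D cyclin bars reach 62.6 and 64.3 on TCP and 42.9 and 41.5 on polymer X, while the CIP/KIP bars reach 13.8 and 14.9 on TCP and 45.9 and 45.4 on polymer X, where CDKN1C is the largest piece.

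The kinases that these proteins bind were lower on polymer X in part. Of 5 G1 kinases and E cyclins tested, 0 were called higher and 3 were called lower, CDK6, CDK2 and CCNE2. For this list and those that follow, the shares over all tested genes were 10.7% called higher and 9.45% called lower. CCNE2 lost its call without polymer X replicate 2, at -0.98 on the log2 scale. CDK6 read 17.2 and 18.1 FPKM on TCP and 4.82 and 4.67 on polymer X, and its log2 fold change was -1.70 (standard error 0.06, adjusted p = 1.9e-08 from limma). CDK4, the other partner of the D cyclins, read 87.0 and 84.3 FPKM on TCP and 56.0 and 54.0 on polymer X, with a log2 fold change of -0.63 that stayed short of the fold minimum and was -0.30 under quantile normalization. The ratio of CDK4 to CDK6 within a library was 5.06 and 4.66 on TCP and 11.6 in both polymer X libraries, so the decrease of CDK6 was the larger one under any scaling. CDK2, the main target of the CIP/KIP proteins, read 39.5 and 39.3 FPKM on TCP and 17.4 and 16.6 on polymer X, with a log2 fold change of -1.17 that became -0.94, no longer called, under quantile normalization. The ratio of CDKN1A to CDK2 was 0.0759 and 0.0591 on TCP and 0.716 and 0.748 on polymer X. The ratio of CDKN1B to CDK2 was 0.192 and 0.203 on TCP and 0.744 and 0.760 on polymer X.

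Further along the cycle, the 5 S and M phase genes tested were each called lower, with CCNB1 at -2.72, CCNA2 at -2.32 and CCNB2 at -2.09 on the log2 scale, followed by CDK1 and CCNF. Of 4 genes of CDK activation, CDC25A, the phosphatase that frees CDK2, was called lower at -2.16. The proliferation markers MKI67, TOP2A and PCNA were lower in the same libraries, with log2 fold changes of -2.61, -2.17 and -1.29, and their summed level was 257.1 to 257.9 FPKM on TCP and 68.5 to 71.5 on polymer X. The share of dividing cells was not measured, and its part in the changes of CDKN1A, CDKN1C and CCND3 was not tested.

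**Figure D4:**
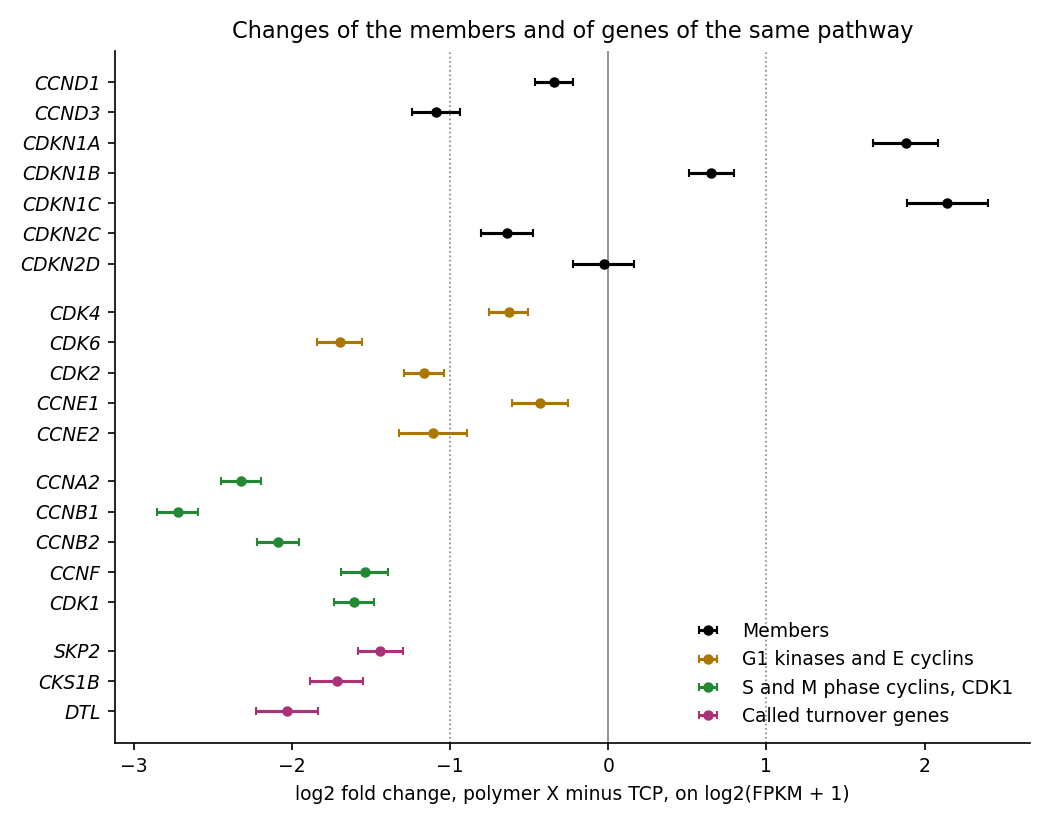
log2 fold changes (polymer X minus TCP, on log2(FPKM + 1)) of the 7 tested members and of 13 genes of the same pathway, with 95% intervals from limma and dotted lines at the fold minimum of 1. The turnover genes drawn are the 3 that were called lower, and those not called, some of them higher on polymer X, are left out. CDKN1A and CDKN1C lie right of the minimum, CCND3 lies at -1.09 with CDK6, CDK2 and the S and M phase genes further to the left, and the interval of CDKN2D spans 0.

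Among 13 genes tested that act in the turnover of D cyclins and CIP/KIP proteins, 0 were called higher and 3 were called lower. SKP2, the ubiquitin ligase subunit that marks p27, read 18.4 and 19.3 FPKM on TCP and 6.46 and 6.17 on polymer X, with a log2 fold change of -1.44. Its cofactor CKS1B had a log2 fold change of -1.72. DTL, the adaptor that sends p21 for breakdown in S phase, had one of -2.03. These are mRNA levels, and the amounts of p27 and p21 protein were not measured in these libraries.

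Of 17 genes of the DNA damage and stress response, all tested, 5 were called higher and 2 lower. BTG2, an antiproliferative gene, had a log2 fold change of 2.05 and the death receptor FAS one of 1.22, with TNFRSF10B and BBC3 also called higher. Under quantile normalization 3 were called higher, with FAS at 0.99 and BBC3 at 0.93, short of the fold minimum. Against these, GADD45A, a DNA damage gene, fell from 250.9 and 241.9 FPKM on TCP to 21.5 and 20.7 on polymer X, and AEN, a nuclease of the same response, had a log2 fold change of -1.99. MDM2, a ubiquitin ligase induced in the same response, read 6.66 and 6.86 FPKM on TCP and 6.72 and 6.87 on polymer X, with groups that overlapped and an adjusted p of 0.93 from limma. CDKN1A thus moved with some genes of this list and against others.

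Of 13 transcription and chromatin regulators of the members that were tested, 3 were called higher and 2 lower. FOXO1 and FOXO4, which are known to turn on CDKN1A and CDKN1B, had log2 fold changes of 1.25 each (FOXO1 0.93, no longer called, under quantile normalization), and CBX7, a Polycomb protein known from CDKN2A, had one of 1.31. MYC, which is known to repress CDKN1A, read 19.7 and 20.4 FPKM on TCP and 1.99 and 2.16 on polymer X, with a log2 fold change of -2.78. EZH2, the Polycomb methyltransferase, had one of -1.31. The part of these regulators in the changes of the members was not tested. Over the lists of pathway, regulator and neighbouring genes together, 9 of 63 tested genes were called higher and 16 were called lower. Over all tested genes, 10.7% were called higher and 9.45% lower. The median log2 fold change was -0.16 over these lists and -0.06 over all tested genes. Under quantile normalization the counts over these lists were 6 higher and 16 lower.

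For each called member, the 2 tested genes nearest in pattern were taken by the distance between their log2(FPKM + 1) values in the 4 libraries, each centred on its own mean. For CCND3 these were ETF1 (distance 0.021) and SMC6 (0.024). For CDKN1A they were LGALS3 (0.056) and EBF4 (0.11), and LGALS3 read 51.6 and 43.8 FPKM on TCP and 173.7 and 182.7 on polymer X. For CDKN1C they were CAPS (0.12) and PI3 (0.13), and CAPS read 2.51 and 3.28 FPKM on TCP and 15.0 and 15.6 on polymer X. Over 4 libraries in 2 groups, nearness means a like difference between the groups and like deviations of the duplicates.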

How the data were processed

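RNA-seq of 4 SKOV3 libraries was used, 2 on TCP and 2 on polymer X. The authors deposited FPKM values per RefSeq transcript of hg19, counted by HOMER on exons of both strands. The submitters' processing notes also list STAR 2.4.0 and DESeq, without a role. Overlapping antisense transcripts would share tags, and no listed transcript of another gene overlapped a member. The number of tags was read from the steps between low values. Values were transformed to log2(FPKM + 1) and fitted under R 4.3.3 by limma 3.58.1, its variance trend on. On simulated data, 200 of 200 genes changed by 1.5 on the log2 scale were called, with 0 unchanged genes called, over 11718 genes. The changed genes were drawn from those of higher FPKM, and the noise was independent with a single small dispersion. This checks the procedure and does not test the calls in the real libraries. Exact permutation tests used scipy 1.17.1, and plots used matplotlib 3.10.9. The members, gene lists and tests were chosen with earlier results of these data known. Named genes were all members, up to 3 called genes of each list with the largest change in each direction, the kinases CDK4, CDK6 and CDK2, MTAP, MDM2 and SKP2, and the 2 genes nearest to each called member. TNFRSF10B, BBC3, CDK1, CCNF and the silent neighbours on chromosome 9 were named after their values were seen. Some items that the rule names are not reported here. Of the 10 neighbours listed, 9 were matched by symbol. Promoters are from RefSeq (GRCh38.p14), exons from GENCODE v29.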

Additional observations from a re-analysis of the deposited data

How the results depend on the processing

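CDKN1A, CDKN1B, CDKN1C, CCND1, CCND3, CDKN2C and the kinases CDK4, CDK6 and CDK2 kept their direction under each of the alternatives tried. These were a pseudocount of 0.1, no filter or a mean FPKM of 5 or more, quantile normalization, a common median, summed transcripts, a replicate block, no variance trend, no fold minimum or one of 2, and each library left out. The filters, the replicate block, the variance trend and the fold minimum leave a log2 fold change as it is. They could therefore not turn a direction. At a log2 fold change of 2 or more, 1 member was called higher (CDKN1C) and 0 lower, and 1 pathway gene was called higher and 7 lower. Without a fold minimum, 3 members were called higher and 3 lower, and 21 pathway genes were called higher and 31 lower. Under quantile normalization 0 members were called lower. With a mean FPKM of 5 or more, 1 pathway gene was called higher. With transcripts summed, the ratio of polymer X to TCP was 0.548 for the D cyclins and 4.13 for the CIP/KIP inhibitors. Signs turned for CDKN2D (0.0091 under a common median and 0.087 without polymer X replicate 2) and for MDM2 (-0.0068 without polymer X replicate 2, and from -0.011 to 0.025 over the libraries left out). The cause was not tested.

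When 1 library was left out, the lone library of its group is assumed to vary like the others. The members called stayed at 2 higher and 1 lower, pathway genes at 9 higher and 15 to 16 lower. The median over the members lay between -0.14 (without polymer X replicate 1) and 0.087 (without polymer X replicate 2), which is the value of CDKN2D, and turned sign without polymer X replicate 2. The ratio of polymer X to TCP lay between 0.653 and 0.676 for the D cyclins, 3.07 and 3.31 for the CIP/KIP inhibitors and 0.646 and 0.756 for the INK4 inhibitors. The share of CCND1 in the D cyclin sum differed by 10.7 to 12.3 percentage points and that of CCND3 by -12.3 to -10.7. Over all tested genes, 702 were called higher and 960 lower with a mean FPKM of 5 or more (42.2% of calls higher, against 53.2%), 4477 were higher and 5212 lower without a fold minimum, and 281 and 150 at a minimum of 2.

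The labels number the duplicates alike but do not say that a number is shared, and deviations of same-numbered libraries correlated at 0.093. With the replicate block, 2 members were called higher and 1 lower and 1285 genes were called higher and 1131 lower, as without it. With groups of equal size the block leaves each log2 fold change as it is. The equal counts therefore do not tell whether the numbers pair libraries. Groups of 2 libraries were too small to look for a library far from the others. Members at 0 are limited by depth to the levels given for 3 tags, for counting error only.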
